A study of Mus musculus with 6 samples.

Results

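Keratin-associated protein (Krtap) genes were described in mouse skin RNA sequencing. The members were the rows of the authors' deposited expression table whose gene name begins with Krtap, 58 of 57010 genes, in 27 numbered subfamilies. Keratin-associated proteins fill the space between the keratin filaments of the hair shaft. They are made late in the hair cortex and cuticle, after the hair keratins, and cross-link the filaments through their cysteines. By composition they are sorted into high sulfur, ultra-high sulfur and high glycine-tyrosine proteins. Hair is built only while a follicle is in its growth phase, and in resting follicles the matrix that makes the shaft is gone.

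The 6 libraries fell into 2 groups of 3. Controls (CON), whose source is labelled wild type, were listed as Control. Imiquimod mice (MOD), whose source is labelled experiment type, were listed as IMQ. Imiquimod activates Toll-like receptor 7 and is used to inflame mouse skin as a model of psoriasis. The series' design text gives a dose of 62.5 mg applied to the shaved back for 6 days in MOD. The controls received no imiquimod, and whether they were shaved or given a vehicle is not stated. It also mentions atropine and zoledronic acid injections at the end for the mice, without naming a group. Strain, sex, age and the origin of each library from a separate animal are not given. The p-values therefore rest on the spread among these libraries, which may be partly technical. The study's title concerns a plant polysaccharide, and mice given it were not analysed here.

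Levels are in TPM, a length-corrected share of the library's transcripts that keeps no depth, so depth is unknown. Krtap transcripts are short, from 166 to 1888 bases in the deposited annotation, and levels of different members are compared per length. Markers of interfollicular epidermis were present in every library (8 genes, summed TPM 3482 to 6281). Of the controls, CON 1 and CON 3 held 194 and 162 TPM of H2-Ea, an MHC class II gene, while CON 2 and all MOD libraries were listed at 0. Rps18, a ribosomal protein gene, split the same way (64.6 and 76.1 TPM against 3622 TPM in CON 2, with MOD at 1954 to 2247 TPM). CON 1 and CON 3 have no MOD library on their side of this split. Both genes were chosen after their values were seen. A fit with a term for this split therefore compares MOD with CON 2, and its values stand beside the pooled ones.

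Promoter sequences show what the members share apart from their name. RefSeq's promoter table (build GRCm38.p6, 250 bases before to 50 after the start) held 51 of the 58 members, 23 of them on chromosome 16, 21 on chromosome 11, 5 on chromosome 7 and 1 each on chromosomes 1 and 10. No entry was found for Krtap1-3, Krtap7-1, Krtap9-1, Krtap10-10, Krtap12-1, Krtap19-9a and Krtap28-10. The TATA word TATAAA, on the sense strand, was in 42 of 51 Krtap promoters (82.4%) against 8.32% of all 32851 promoters in the table. Between 50 and 6 bases before the start it was in 34 of 51 (66.7%) against 2.49%. CTTTGAA, on either strand, is a word recognised by LEF1, a transcription factor of the hair matrix. It was in 9 of 51 (17.6%) against 5.14%. In Krtap3-2 and Krtap3-3 it lay after the start, at the same place. Members of a cluster share sequence, so their promoters are not independent counts. These words cannot overlap each other. A match describes letters and shows no binding. Below are 5 promoters, chosen after the values were seen because their genes stand for the patterns described later, with both words in capitals. Krtap8-1 (chr16:89487903-89488202, minus strand) and Krtap11-1 (chr16:89571134-89571433, minus strand) were among the 3 most abundant members in CON 3. Krtap1-5 (chr11:99580967-99581266, minus strand) and Krtap4-1 (chr11:99628190-99628489, minus strand) were higher in CON 2 than in CON 3. Krtap19-3 (chr16:88877989-88878288, minus strand) stood far higher in CON 1 than elsewhere.
Krtap8-1: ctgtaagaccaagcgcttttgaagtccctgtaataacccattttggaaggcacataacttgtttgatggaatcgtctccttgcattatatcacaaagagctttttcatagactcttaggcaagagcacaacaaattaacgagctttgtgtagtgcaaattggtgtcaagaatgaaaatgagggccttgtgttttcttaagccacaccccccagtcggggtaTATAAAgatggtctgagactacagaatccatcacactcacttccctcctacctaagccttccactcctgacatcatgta
Krtap11-1: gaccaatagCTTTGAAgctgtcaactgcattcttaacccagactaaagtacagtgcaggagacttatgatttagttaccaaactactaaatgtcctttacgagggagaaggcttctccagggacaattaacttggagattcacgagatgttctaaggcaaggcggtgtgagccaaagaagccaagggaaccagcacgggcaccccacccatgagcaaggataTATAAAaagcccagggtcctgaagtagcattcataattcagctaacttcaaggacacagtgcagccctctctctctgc
Krtap1-5: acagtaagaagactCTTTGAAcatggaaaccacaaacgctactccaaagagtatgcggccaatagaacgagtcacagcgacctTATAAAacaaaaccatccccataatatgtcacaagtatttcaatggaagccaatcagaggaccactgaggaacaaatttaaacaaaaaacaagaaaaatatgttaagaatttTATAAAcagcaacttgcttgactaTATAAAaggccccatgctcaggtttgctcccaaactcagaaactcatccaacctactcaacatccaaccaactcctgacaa
Krtap4-1: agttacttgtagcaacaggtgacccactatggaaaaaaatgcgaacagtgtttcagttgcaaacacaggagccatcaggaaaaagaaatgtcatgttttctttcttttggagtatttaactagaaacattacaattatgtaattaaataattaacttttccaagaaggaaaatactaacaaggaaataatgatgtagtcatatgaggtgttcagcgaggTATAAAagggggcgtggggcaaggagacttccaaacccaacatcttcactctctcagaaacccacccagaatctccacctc
Krtap19-3: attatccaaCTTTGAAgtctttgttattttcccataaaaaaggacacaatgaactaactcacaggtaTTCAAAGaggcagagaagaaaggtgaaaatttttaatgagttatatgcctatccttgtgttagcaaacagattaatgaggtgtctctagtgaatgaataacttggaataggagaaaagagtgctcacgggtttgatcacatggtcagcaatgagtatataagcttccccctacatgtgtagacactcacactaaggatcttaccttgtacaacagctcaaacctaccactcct
The TATAAA word nearest the start began 29, 28, 31 and 31 bases before it in the first 4, and Krtap19-3 held none. Of the 6 Krtap19 promoters, 2 held TATAAA, while all 8 Krtap4 promoters did. Only the exact word was counted. The promoters of Krtap19-1, Krtap19-2, Krtap19-3 and Krtap19-4 lacked it and held the similar letters tatataag. Krtap11-1 and Krtap1-5 held 1 CTTTGAA word each and Krtap19-3 held 2.

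Imiquimod-treated skin held almost no Krtap RNA. Summed over the 58 members, TPM was 41290 in CON 1, 1757 in CON 2 and 1938 in CON 3, and 1.19, 1.29 and 2.60 in MOD 1 to 3. The sum was 4.13, 0.176 and 0.194% of all TPM in the controls, and every MOD library lay far below the lowest control. The log2(sum + 1) was 12.34 ± 2.59 in CON and 1.39 ± 0.40 in MOD (SD, n = 3 per group), a difference of -10.95 (exact permutation test, two-sided, p = 0.1, the smallest that 3 against 3 allows). With the H2-Ea term the difference was -9.39. In bulk skin, fewer cells of a type and less RNA per cell cannot be told apart.

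**Figure D1:**
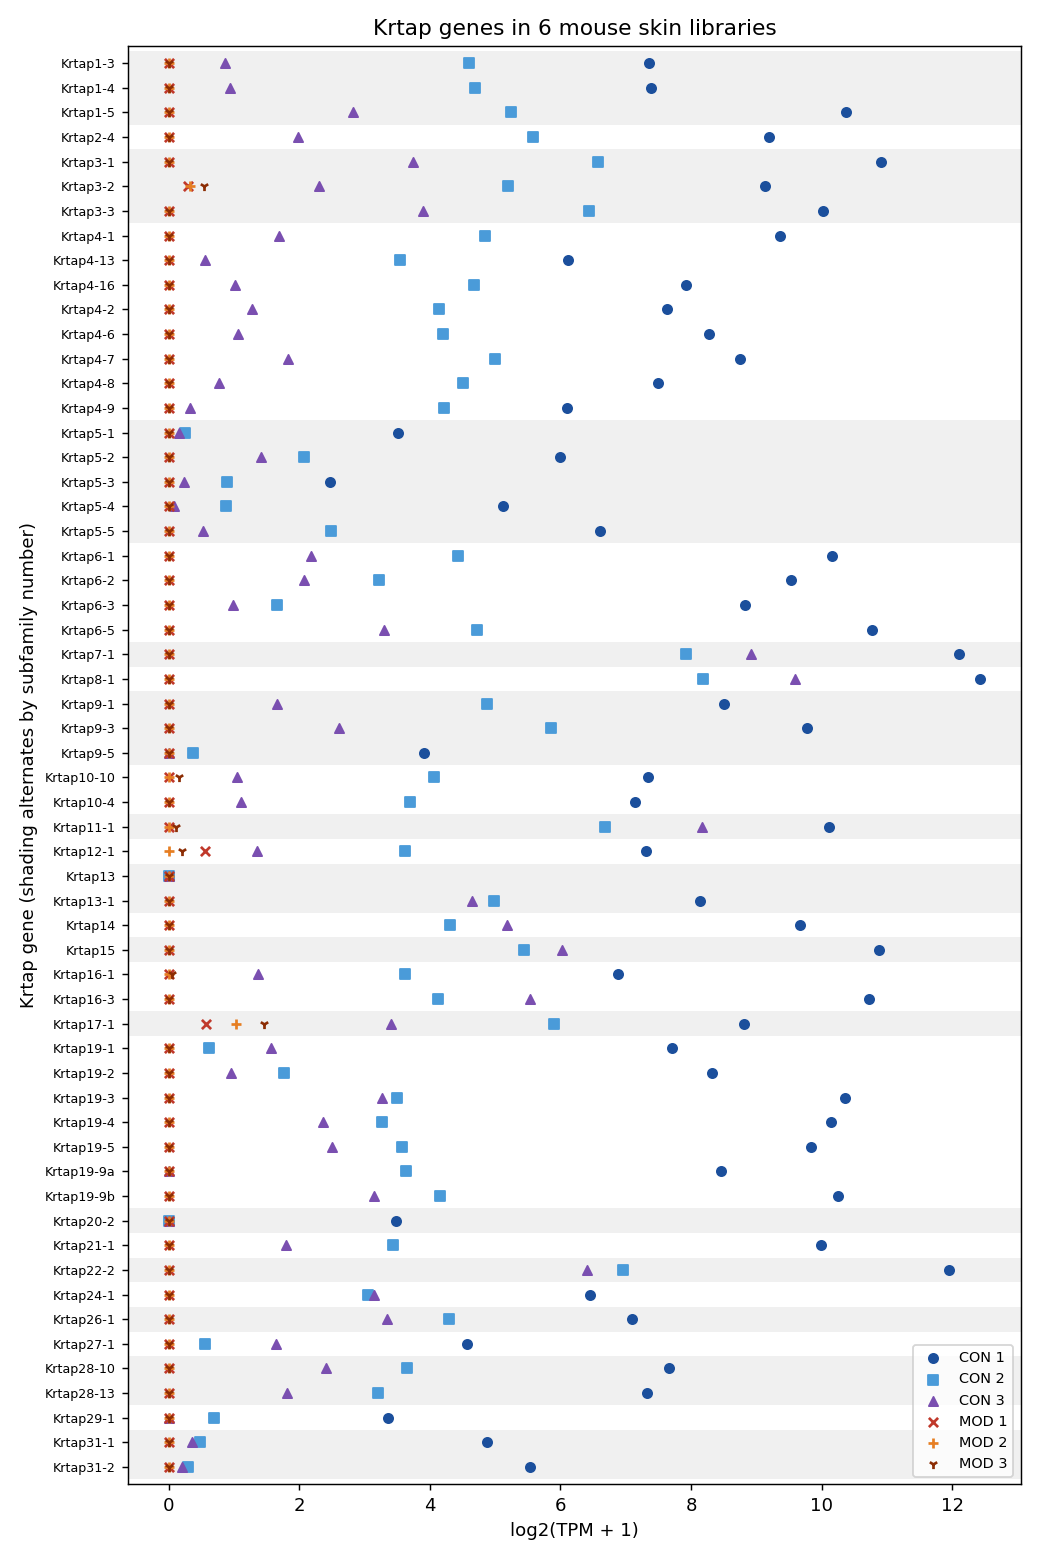
Level of each of the 58 Krtap genes as log2(TPM + 1) in every library, ordered by subfamily number. Points are libraries. MOD libraries lie at or near 0 throughout, and CON 1 is the highest control for 57 genes.

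Of the 58 members, 52 were listed at 0 in all 3 MOD libraries. The 6 others were Krtap3-2, Krtap10-10, Krtap11-1, Krtap12-1, Krtap16-1 and Krtap17-1. Krtap17-1, whose human counterpart is a hair cuticle gene, was the only member to reach 1 TPM in MOD, at 0.49, 1.04 and 1.76 TPM. Krtap3-2 was at 0.23, 0.25 and 0.46 TPM there. The groups did not overlap for 53 members, against 25.9% of the 30635 genes above 0 in any library. Krtap13 was listed at 0 in all 6 libraries, and Krtap20-2, Krtap9-5, Krtap19-9a and Krtap29-1 were at 0 in at least 1 control.

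Genes were tested on log2(TPM + 1) with limma across the 15323 genes that reached 1 TPM in 3 or more libraries, with Benjamini-Hochberg adjustment over all of them and a threshold of 0.05. This filter kept 38 Krtap members. All but Krtap17-1 met it through CON alone and so had to come out lower. Of the 38, 32 fell and 0 rose, where 36.1% of all tested genes were called lower and 12.5% higher. The median log2 difference was -5.28, against -0.31 over all tested genes. Because most MOD values are 0, the size of these differences depends on the pseudocount and on CON 1. For members at 0 in all MOD libraries the spread comes from the controls alone. limma also draws each gene's spread toward that of other genes, so their standard errors can lie below what the controls' own spread gives. The members' median was -8.44 with a pseudocount of 0.1 and -3.37 without CON 1, where 28 and 23 of the 38 differences moved by over 1.5 times. Without CON 1 the differences ran from -8.88 to -1.74. Under median-of-ratios scaling, which brings that median to 0.00, 22 Krtap members were called lower, and over all genes the calls were 2868 lower and 3097 higher in place of 5538 and 1914. With the H2-Ea term 5 of the 38 members fell and 0 rose, where 17.9% of all tested genes were called lower and 4.35% higher. With that term Krtap members were thus called lower no more often than genes in general. That fit takes its spread partly from CON 1 against CON 3, which differ widely here. The count was 21 without CON 2, 12 without MOD 1, 13 without MOD 2 and 13 without MOD 3. Calls over all 15323 tested genes moved too, with 4373 lower without CON 2 and 3559 without MOD 1. Whichever single library was left out, 3559 to 5487 genes were called lower. Without the filter on low values 13 of 57 members were called lower, where 15% of 30635 genes were called lower and 5.12% higher. All tested members stood below 0 in each of these fits.

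The 12 members that kept their calls whichever library was left out were Krtap3-1, Krtap3-3, Krtap7-1, Krtap8-1, Krtap11-1, Krtap13-1, Krtap14, Krtap15, Krtap16-3, Krtap22-2, Krtap24-1 and Krtap26-1. Krtap7-1, Krtap8-1, Krtap11-1, Krtap13-1 and Krtap22-2 were the 5 called with the H2-Ea term too. The 20 other calls were lost without at least 1 library, with adjusted p up to 0.12 (limma).

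**Figure D2:**
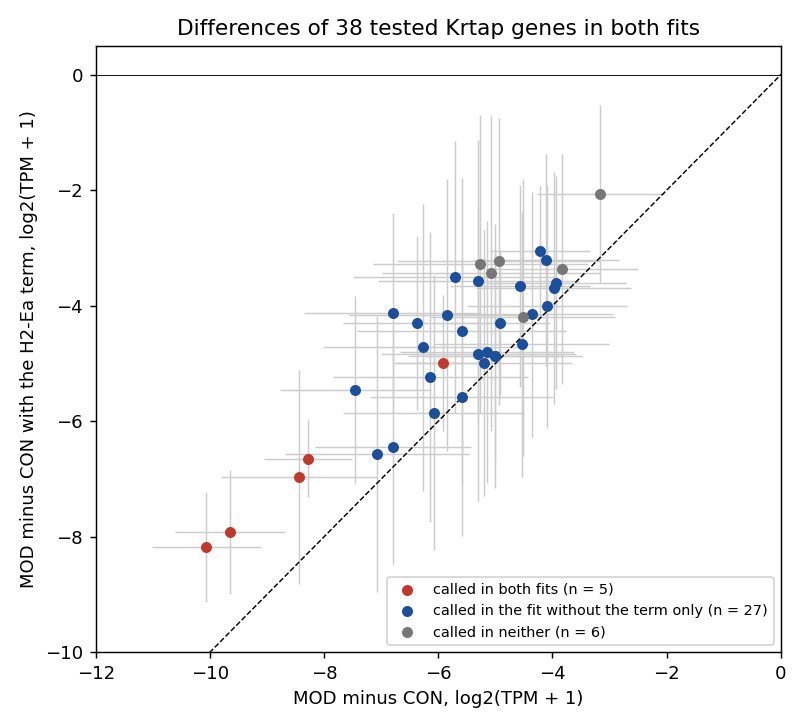
Difference of MOD minus CON on log2(TPM + 1) for the 38 tested members, without (horizontal) and with (vertical) the H2-Ea term. Bars are standard errors and the dashed line marks equality. The 5 members called in both fits include the 4 with the largest differences.

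High glycine-tyrosine members carried most of the Krtap RNA in CON 1 and CON 3, at 63.2 and 73.7% of the Krtap sum, and 45.4% in CON 2. Krtap8-1, a small glycine- and tyrosine-rich cortex protein, was the most abundant member. It stood at 5502, 289 and 769 TPM in CON 1 to 3 and was listed at 0 in all MOD libraries. It fell by 10.06 on the log2 scale (SE 0.96, limma adjusted p = 0.0012). With the H2-Ea term these were -8.18 and 0.011. Krtap7-1, of the same composition class, was at 4405, 242 and 483 TPM and at 0 in MOD. Its difference was -9.65 (SE 0.97, limma adjusted p = 0.0013). For both genes CON 3 lay above CON 2. Krtap22-2 was at 3952, 123 and 83.4 TPM in CON, and MOD was at 0 (log2 difference -8.44, SE 1.36, limma adjusted p = 0.0041). Krtap16-3, which carries the Pfam domain KRTAP in the deposited annotation, was at 1700, 16.4 and 45.4 TPM (-6.80; -4.12 with the H2-Ea term).

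Near-identical genes, as in the Krtap1, Krtap4, Krtap6, Krtap9 and Krtap19 subfamilies, can exchange reads, so how their signal divides among members is uncertain. CON 1 held most of the control signal of every member above 0, from 74.0% for Krtap11-1 upward. For the Krtap6 and Krtap19 genes it held 96.9 to 99.3%. Members of other subfamilies, such as Krtap1-5 (96.9%) and Krtap31-2 (99.2%), lay in the same range. The Krtap6 genes summed to 4075, 56.5 and 16.5 TPM in CON 1 to 3. Krtap6-5 was at 1744, 25.4 and 8.85 TPM and fell by 6.26, and Krtap6-1 was at 1140, 20.6 and 3.51 TPM and fell by 5.59 on the log2 scale. Without CON 1 these differences were -4.01 and -3.30, and for Krtap6-1 a pseudocount of 0.1 gave -8.78. Both calls were lost without each MOD library in turn, and that of Krtap6-1 also without CON 2 (limma adjusted p = 0.058 to 0.10). Krtap6-2, at 739, 8.36 and 3.19 TPM, did not pass (limma adjusted p = 0.056), but passed without CON 1 (0.0064) and without CON 3 (0.029). Krtap6-3, at 452, 2.16 and 0.98 TPM, did not meet the filter. The Krtap19 genes summed to 5449, 61.0 and 28.1 TPM.

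Of the 7 Krtap19 genes, 4 were tested and 3 fell. Krtap19-3 was at 1311, 10.3 and 8.63 TPM, Krtap19-9b at 1212, 16.8 and 7.82 TPM and Krtap19-5 at 913, 10.9 and 4.66 TPM, with log2 differences of -5.71, -5.85 and -5.30. Without CON 1 they were -3.38, -3.65 and -3.04, and with the H2-Ea term Krtap19-3 was at -3.50. These 3 calls were lost without each MOD library in turn (limma adjusted p = 0.069 to 0.11). Krtap19-4 was at 1131, 8.63 and 4.15 TPM and did not pass (0.056), but passed without CON 1 (0.0042) and without CON 3 (0.032). The untested members were Krtap19-1 (209, 0.53 and 1.95 TPM), Krtap19-2 (320, 2.39 and 0.93 TPM) and Krtap19-9a (353, 11.4 and 0 TPM). Krtap21-1 was at 1018, 9.82 and 2.47 TPM and had the highest adjusted p of the tested members (0.066; 0.012 without CON 1 and 0.028 without CON 3). Krtap20-2 was at 10.1 TPM in CON 1 and at 0 elsewhere. In these subfamilies CON 1 stood far above the other controls, as it did for most members. No gene in them passed 25.4 TPM in CON 2 or CON 3.

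High sulfur members made up 24.8, 32.9 and 24.3% of the Krtap sum in CON 1 to 3. All 12 that were tested fell, where 36.1% of all tested genes were called lower. These 12 met the filter through CON alone and so had to come out lower. The class as drawn here leaves out the Krtap10 and Krtap12 genes, of which Krtap12-1 was tested and did not pass (limma adjusted p = 0.052). Krtap11-1, a cortex protein, was the most even member across controls, at 1104, 102 and 285 TPM, and had 0, 0 and 0.08 TPM in MOD. Its log2 difference was -8.28 (SE 0.77, limma adjusted p = 0.0011). With the H2-Ea term these were -6.65 and 0.0086. Krtap13-1 was at 280, 30.7 and 24.0 TPM in CON, and MOD was at 0 (log2 difference -5.92, SE 0.86, limma adjusted p = 0.0031). Krtap15 was at 1888, 42.6 and 64.2 TPM and Krtap14 at 809, 18.7 and 35.2 TPM, with differences of -7.45 and -6.38. Krtap24-1 (87.0, 7.31 and 7.87 TPM) and Krtap26-1 (136, 18.6 and 9.19 TPM) had differences of -4.22 and -4.91. Both had a lower CON 1 than most members. Krtap16-1, which is on chromosome 11, was at 117, 11.3 and 1.59 TPM and fell by 3.94 (-2.48 without CON 1), a call lost without CON 2 and without each MOD library (limma adjusted p up to 0.094). Krtap27-1, at 22.6, 0.47 and 2.11 TPM, was not tested.

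The high sulfur genes of the Krtap1, Krtap2 and Krtap3 subfamilies were higher in CON 2 than in CON 3, as were Krtap13-1, Krtap16-1 and Krtap26-1, while 5 of the class were higher in CON 3. Krtap3-1 was at 1933, 94.0 and 12.3 TPM in CON 1 to 3, and MOD was at 0 (log2 difference -7.07, SE 1.61, limma adjusted p = 0.012). Krtap3-3 was at 1038, 86.0 and 13.9 TPM (-6.79). Krtap3-2 was at 561, 35.5 and 3.93 TPM and fell by 5.15 (-3.36 without CON 1), a call lost without CON 2 and without each MOD library (limma adjusted p up to 0.084). Krtap1-5 was at 1328, 36.7 and 6.05 TPM and fell by 6.14 (-4.03 without CON 1), and Krtap2-4 was at 588, 46.9 and 2.95 TPM and fell by 5.59 on the log2 scale. The calls of Krtap1-5 and Krtap2-4 were lost without each MOD library in turn, and that of Krtap2-4 also without CON 2 (limma adjusted p = 0.057 to 0.076). Krtap1-3 (163, 23.1 and 0.82 TPM) and Krtap1-4 (167, 24.7 and 0.92 TPM) were not tested, since CON 3 lay below 1 TPM.

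Ultra-high sulfur members, counted here with the Krtap10 and Krtap12 genes, took 10.9, 20.5 and 1.69% of the Krtap sum in CON 1 to 3. Over all 20 of them the sum was 4509, 359.5 and 32.7 TPM, and CON 2 exceeded CON 3 for each of the 20. Krtap9-3, the most abundant, was at 875, 56.8 and 5.10 TPM and fell by 6.08 (SE 1.59, limma adjusted p = 0.020; 0.061, 0.053 and 0.052 without MOD 1, MOD 2 and MOD 3). Krtap4-1 was at 654, 27.7 and 2.22 TPM (log2 difference -5.30, limma adjusted p = 0.040). Without CON 1 the difference was -3.27. Its call was lost without CON 2 (0.070) and without each MOD library in turn (0.10, 0.091 and 0.090). Krtap17-1 was at 446, 58.5 and 9.54 TPM (-5.01, limma adjusted p = 0.015; 0.055 without MOD 1). Of the 8 Krtap4 genes 4 fell. Besides Krtap4-1 these were Krtap4-7 (427, 30.8 and 2.53 TPM), Krtap4-16 (242, 24.4 and 1.02 TPM) and Krtap4-2 (198, 16.7 and 1.42 TPM), with log2 differences of -5.19, -4.54 and -4.35. Krtap9-1, at 362, 28.2 and 2.16 TPM, had -5.01. Without CON 1 these 4 differences were -3.41, -2.84, -2.71 and -3.26. These 4 calls were lost without CON 2 and without each MOD library in turn, and that of Krtap4-16 also without CON 1, with limma adjusted p up to 0.11. Krtap4-6, at 309, 17.4 and 1.08 TPM, did not pass (0.054; 0.0087 without CON 3), and Krtap4-13, Krtap4-8 and Krtap4-9 were not tested, with 0.25 to 0.70 TPM in CON 3.

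Krtap5, Krtap10 and Krtap12 proteins are known from the hair cuticle in humans, and all were at low levels here. Krtap10-10 was at 161, 15.7 and 1.07 TPM (log2 difference -4.10, limma adjusted p = 0.048). Without CON 1 the difference was -2.51. That call was lost without every library but CON 3, with adjusted p of 0.057 without CON 1 and 0.089 to 0.12 without the others, and with the replicate number as a block (0.053). Krtap10-4 was at 140, 11.9 and 1.16 TPM and fell by 3.98 on the log2 scale (-2.40 without CON 1), a call lost without CON 2 and without each MOD library (limma adjusted p up to 0.11). Krtap12-1 was at 157, 11.2 and 1.54 TPM and did not pass (0.052), but passed without CON 1 (0.041), without CON 3 (0.011) and with the block (0.045). Of the 5 Krtap5 genes only Krtap5-2 was tested, at 62.8, 3.19 and 1.65 TPM, and it did not pass (0.052; 0.0078 without CON 1 and 0.028 without CON 3). Krtap5-5 was at 96.8, 4.62 and 0.44 TPM and Krtap5-4 at 33.7, 0.83 and 0.06 TPM. Krtap5-1 and Krtap5-3 reached 10.3 and 4.51 TPM in CON 1, and Krtap9-5 reached 14.0 TPM.

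Members with no class assigned here were few and low. Krtap28-10 was at 202, 11.6 and 4.30 TPM and fell by 4.57 on the log2 scale (-3.03 without CON 1; limma adjusted p = 0.021; 0.064, 0.056 and 0.055 without MOD 1, MOD 2 and MOD 3). Krtap28-13 was at 160, 8.23 and 2.50 TPM and fell by 4.11 (-2.51 without CON 1), a call lost without each MOD library (limma adjusted p up to 0.092). Krtap29-1 was at 9.26, 0.62 and 0 TPM. Krtap31-1 was at 28.3, 0.39 and 0.28 TPM and Krtap31-2 at 45.3, 0.22 and 0.15 TPM. None of these last 3 was tested.

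The controls differed from each other far more for Krtap genes than for genes in general. CON 1 was the highest control for 57 of 58 members, where it was highest for 24.9% of all tested genes. The standard deviation of log2(TPM + 1) over the 3 controls had a median of 3.30 among the 38 tested members (1.72 to 4.34) and of 0.23 among all tested genes. For 52 members CON 1 was at least 10 times the mean of CON 2 and CON 3. Of all 15323 tested genes 86 met this (0.561%), and 36 of those 86 were Krtap members. There is 1 library on the high side, so the difference has no test.

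The excess in CON 1 was uneven across members. Its ratio to the mean of CON 2 and CON 3 had a median of 29.1 over the 56 members with a value, from 5.70 for Krtap11-1 to 288 for Krtap6-3. By class the median was 18.2 for high sulfur (15 members), 24.2 for ultra-high sulfur (20) and 110 for high glycine-tyrosine genes (16). Among the last, Krtap8-1 and Krtap7-1 were the lowest, at 10.4 and 12.2. The 10 genes with the Pfam domain KRTAP and a ratio had a median of 128, and the 5 with only the PMG domain 11.5. Ratios of genes that exchange reads are not independent.

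**Figure D3:**
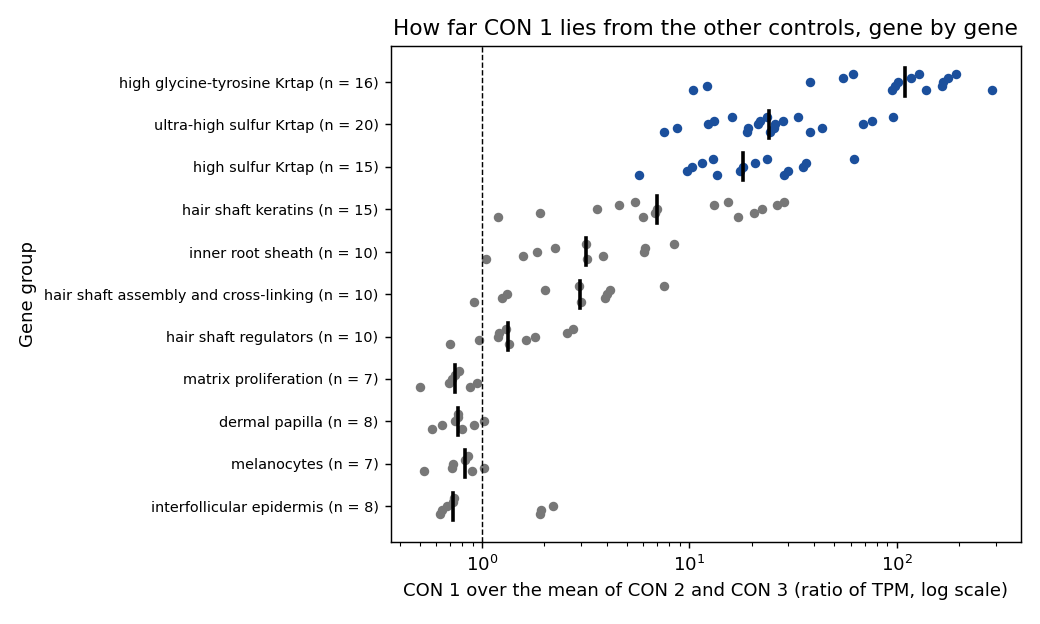
Ratio of TPM in CON 1 to the mean of CON 2 and CON 3 on a log axis, gene by gene, for Krtap classes (blue) and other gene lists (grey). Black bars are medians and the dashed line marks equality. Krtap medians run from 18.2 to 110, against 7.01 for hair shaft keratins and 0.743 for matrix proliferation genes.

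Other genes of the hair follicle showed how far this excess reached. Hair shaft keratins form the filaments that Krtap proteins bind. Their sum was 6701, 829.5 and 1950 TPM in CON 1 to 3 against 1.34 to 2.66 TPM after imiquimod. All 12 tested fell, where 36.1% of all tested genes were called lower, and 9 with the H2-Ea term, where 17.9% were. None of the 12 reached 1 TPM in MOD, so they met the filter through CON alone and had to come out lower. The ratio of CON 1 to the other controls had a median of 7.01 over 15 keratins, from 1.19 for Krt35 to 28.6 for Krt39. This range overlaps that of the Krtap members (5.70 to 288). Krt35, an early keratin of the hair matrix and cuticle, was at 606, 318 and 699 TPM, with a ratio of CON 2 to CON 3 of 0.456. Krt33a, a cortex keratin, was at 1028, 61.2 and 241 TPM. Inner root sheath genes had a median ratio of 3.19, all 10 fell, and Krt71, a sheath keratin, was at 3905, 1938 and 533 TPM in the controls against 0.03 to 0.19 TPM. The sheath genes other than Gata3 and Krt28 also met the filter through CON alone.

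Hair shaft regulators, which act before the shaft proteins, had a median ratio of CON 1 to the other controls of 1.33, with CON 1 highest for 7 of 10. Foxn1, a forkhead factor needed for hair shaft formation, was at 34.1, 10.8 and 14.0 TPM in the controls and 0.93 to 1.12 TPM after imiquimod, and its ratio of 2.76 was the highest of the list. The regulators summed to 615.7, 455.6 and 506.6 TPM in the controls against 37.95 to 58.63 TPM in MOD, and 9 of 10 fell, with Prdm1 not passing (limma adjusted p = 0.13). Hoxc13, a homeobox factor that activates hair keratin and Krtap genes, was at 80.0, 51.8 and 80.3 TPM in the controls against 1.11, 1.56 and 4.05 TPM after imiquimod (log2 difference -4.55, limma adjusted p = 0.00084). Dlx3, a homeobox factor needed for the hair shaft, was at 198, 170 and 162 TPM and 1.39 to 4.77 TPM. Genes listed for matrix proliferation had their lowest control sum in CON 1, at 389.2 against 504.6 and 509.0 TPM. Mki67 was lowest in CON 3 instead. All 7 fell in MOD (141.9 to 165.6 TPM), and bulk skin cannot assign them to matrix cells. Top2a, a topoisomerase of dividing cells, was at 95.9, 124 and 124 TPM in the controls against 30.8 to 37.7 TPM. The 8 epidermal markers went 1 lower and 1 higher, and 5 of 6 skeletal muscle markers rose, 3 with the H2-Ea term (summed 2530, 3870 and 8577 TPM in the controls, 17000 to 26200 TPM after imiquimod). The part of tissue make-up in the Krtap difference was not tested.

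CON 2 and CON 3 had similar Krtap sums and different make-ups. Krtap7-1, Krtap8-1 and Krtap11-1 together took 26.7% of the Krtap sum in CON 1, 36.0% in CON 2 and 79.3% in CON 3. These 3 genes were chosen after their values were seen. CON 2 held 47 members at 1 TPM or more and CON 3 held 40, and the median member was at 16.1 and 2.19 TPM. CON 2 exceeded CON 3 for 47 members and CON 3 exceeded CON 2 for 9, which were Krtap7-1, Krtap8-1, Krtap11-1, Krtap14, Krtap15, Krtap16-3, Krtap19-1, Krtap24-1 and Krtap27-1.

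**Figure D4:**
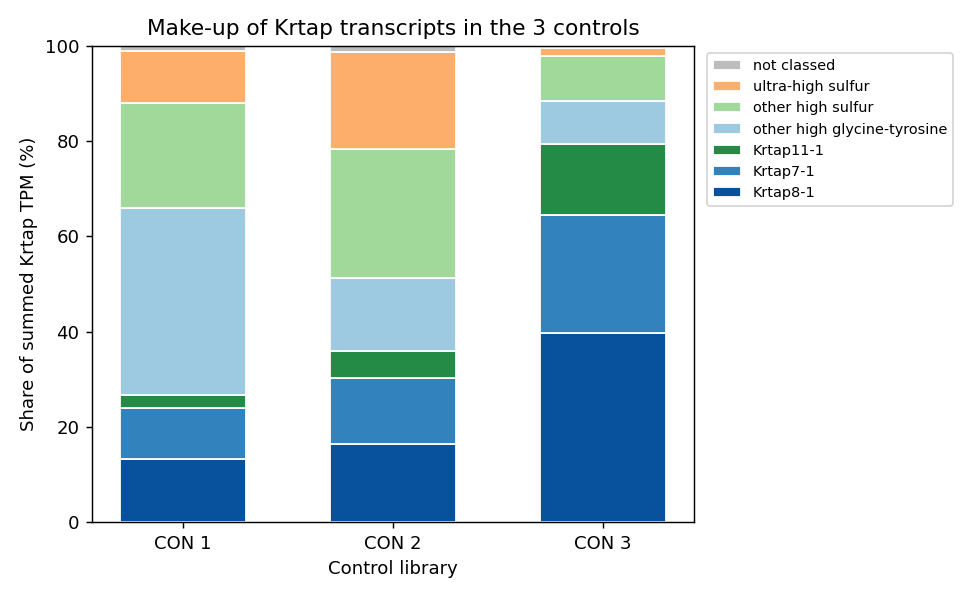
Share of the summed Krtap TPM held by Krtap8-1, Krtap7-1, Krtap11-1 and the remaining members by class, in each control library. The 3 named genes rise from 26.7% in CON 1 to 79.3% in CON 3, and ultra-high sulfur genes shrink to 1.69% there.

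The size of the difference between CON 2 and CON 3 varied by chromosome. Chromosome overlaps with composition class, and the part of each was not tested. All 21 matched members on chromosome 11, which hold the Krtap1 to Krtap4, Krtap9, Krtap16-1, Krtap17, Krtap29 and Krtap31 genes, were higher in CON 2, with a median ratio of CON 2 to CON 3 of 11.8 (1.39 to 70.6, 19 members above 0 in both). On chromosome 16, 13 of 23 were higher in CON 2 and 8 in CON 3, with a median of 1.48 (0.223 to 5.87, 21 members). The 5 Krtap5 genes on chromosome 7 had a median of 4.72. With 1 library on each side there is no test, and members of a cluster share sequence. Across the 53 members above 0 in every control, Spearman's rho was 0.66 for CON 1 with CON 2, 0.78 for CON 1 with CON 3 and 0.64 for CON 2 with CON 3, a description over genes that share their libraries.

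**Figure D5:**
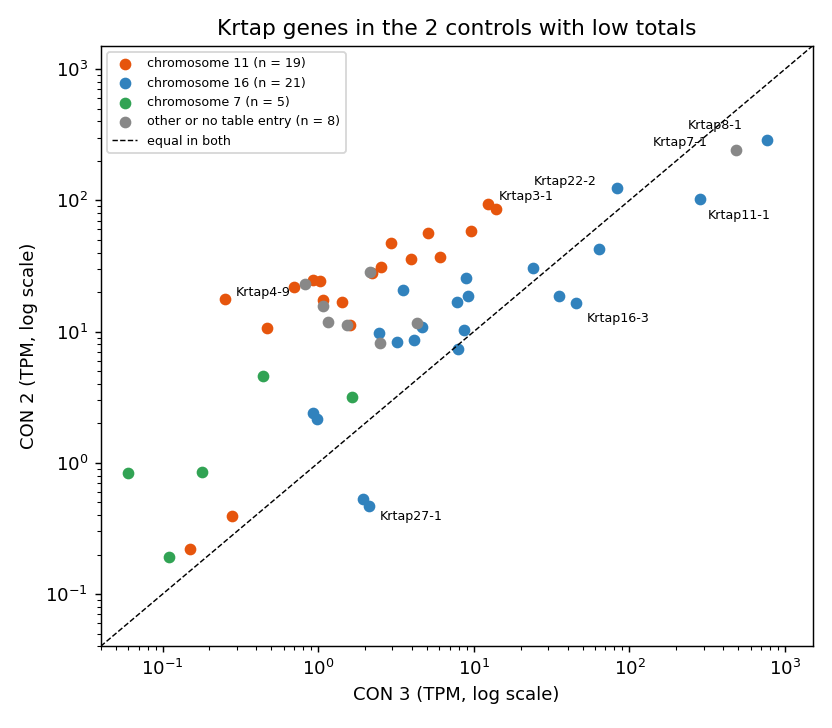
TPM of each member in CON 2 (vertical) against CON 3 (horizontal) on log axes, coloured by chromosome (RefSeq, GRCm38.p6), for the 53 members above 0 in both. Genes on chromosome 11 all lie above the line of equality, and Krtap7-1, Krtap8-1 and Krtap11-1 lie below it at the high end.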

How the data were processed

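The authors deposited 1 table of TPM values for 57010 genes in 6 libraries of mouse skin. RNA was isolated with TRIzol, cleared of DNA with DNase I and made into SMARTER mRNA-Seq libraries, per the labels' protocols. The submitters' processing notes name the build GRCm39. The sources used here do not give aligner, annotation or quantification program. How length was corrected for short genes, such as Krtap genes, is therefore unknown, as is the handling of reads shared by near-identical members. Libraries are numbered as in the labels' titles, so CON 2 and CON 3 are the deposited columns CON3 and CON4.

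log2(TPM + 1) was fitted in limma 3.58.1 under R 4.3.3 (lmFit, eBayes with trend, two-sided) and checked on simulated data. Tested genes reached 1 TPM in 3 or more of all 6 libraries, also where a library was left out. Alternatives were other pseudocounts, filters and scalings, the H2-Ea term, a replicate block and each library left out. Ratios and sums were taken on TPM. Promoters and chromosomes come from RefSeq's GRCm38.p6 and were matched by symbol only. Composition classes were assigned by subfamily number, with Krtap16 genes placed by the deposited Pfam names, because no protein sequences were used here. The planned cysteine and glycine-tyrosine shares were not computed for that reason. Krtap10 and Krtap12 genes were counted as ultra-high sulfur, a placement not checked against sequence. Counts, sums, shares and medians of the high sulfur and ultra-high sulfur classes depend on it.

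Members and lists were chosen with earlier results of these data known. Named were the most abundant member of each subfamily, the 6 most abundant, the 5 with the largest called difference and all with at least 1 TPM in CON that were not called. From other lists up to 4 of the most abundant genes were eligible. Further members are named to complete a group.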

Additional observations from a re-analysis of the deposited data

How the results depend on the processing

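Of 38 tested Krtap members 32 were called lower. The count was 18 of 18 with a filter of 5 TPM, 13 of 57 with no filter, 5 of 38 with the H2-Ea term and 3 of 57 with that term and no filter, an alternative added after seeing the data. It was 22 under both median-of-ratios and quantile scaling, 38 with pseudocounts of 0.1 and 0.5, and 12 to 38 with single libraries left out. No setting called a member higher. Where a filter was used, tested members other than Krtap17-1 met it through CON alone and had to come out lower. Without a filter, members at 0 in all MOD libraries could not come out higher either. For these members the absence of higher calls is therefore no check. Of the 38 differences 28 moved by over 1.5 times with a pseudocount of 0.1, 23 without CON 1 and 5 with the H2-Ea term, with or without the filter, and 0 under the other settings run. A lower filter admits members near 0 in CON 2 or CON 3. The difference of the Krtap sum stayed between -11.74 and -9.39. Over all genes 5538 were lower and 1914 higher. Median-of-ratios scaling gave 2868 and 3097, quantile scaling 3177 lower, the H2-Ea term 2747 and 667, and that term without the filter 1782 and 210. Leaving out single libraries gave 3559 to 5487 lower. Among listed genes, 67 lower and 24 higher became 25 and 5 with the term and no filter, and 13 were higher with the term alone. The median difference of all tested genes was -0.31, and 0.00 and -0.04 under median-of-ratios and quantile scaling. The cause was not tested. Correlations of deviations between CON and MOD libraries were 0.005, 0.069 and 0.066 for like replicate numbers 1 to 3. For unlike numbers they were -0.104 to 0.038. With so few libraries this cannot settle whether the numbers pair them. The replicate block left 32 Krtap calls, with Krtap10-10 lost and Krtap12-1 gained, and 5343 lower and 1914 higher genes in all. CON 1 over the other controls, 22.3 for the Krtap sum, was 23.3 and 23.6 under the other scalings. TPM gives no depth, so a value of 0 sets no limit.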

Other observations

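CON 1 was the highest control for 0 of 8 dermal papilla and 0 of 7 melanocyte genes. Dermal papilla genes summed to 76.4, 85.3 and 103.5 TPM in CON 1 to 3 and 19.8 to 33.9 TPM in MOD, with 6 of 8 called lower (limma), 4 with the H2-Ea term. Melanocyte genes were highest in CON 3, at 900.3 TPM against 481.4 and 439.1 TPM, and all 7 were called lower in MOD, 3 with the H2-Ea term. Vsig8, a protein of the hair shaft, was at 399, 34.3 and 71.6 TPM in CON, with a ratio of CON 1 to the other controls of 7.53, near the median of the hair keratins. S100a3, a calcium-binding protein of the hair cuticle, had a ratio of 2.95. Of the other lists, outer root sheath and stem cell genes went 5 lower and 2 higher of 8, sebaceous gland genes 1 lower and 1 higher of 7, dermal fibroblast genes 1 higher of 6 and adipocyte genes neither way of 5. Higher in MOD were 5 of 5 neutrophil genes (summed 24.15 to 75.71 TPM in CON, 2420 to 7562 TPM in MOD), 5 of 5 macrophage genes, 3 of 4 endothelial genes and 1 of 4 T cell genes. With the H2-Ea term the counts higher were 4 neutrophil, 2 macrophage, 3 endothelial and 1 T cell genes, and 0 outer root sheath, sebaceous gland and fibroblast genes. Lower with that term were 6 outer root sheath genes and 1 sebaceous gland gene.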
